A study of Homo sapiens with 4 samples.

Results

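In A549 cells, a lung adenocarcinoma cell line, the m6A peaks of 9986 genes were compared between a control library pair and a YTHDF2 knockdown library pair. The genes were grouped by the number of distinct peaks that each gene had in either deposited peak list, among the 11153 of 28283 genes that reached FPKM 1 in each input library (genes kept). FPKM is a fragment count scaled by exon length and by library size. Of the 9986 genes, 901 had peaks only in the control (only shNC), 3525 had more peaks in the control (more shNC) and 2926 had an equal number. A further 2071 had more peaks after knockdown (more shY2-2) and 563 had peaks only after knockdown (only shY2-2). The remaining 1167 of the 11153 genes had no peak in either list. The sizes of these groups follow from the peak counts that define them, so they are a description and were not tested.

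The control cells (shNC) carried the PLKO_1 control vector and the knockdown cells (shY2-2) an shRNA against YTHDF2. Each condition gave 1 input library and 1 IP library, made by precipitation with an antibody to m6A, and with 4 libraries altogether no value below has a replicate check, and a difference between the conditions cannot be told apart from a difference between the libraries. The labels give no culture or clone number, no time after transduction and no further treatment, and both conditions share the cell line. The typical A549 genes were expressed (5 of 5, from ALDH1A1 to NQO1), as were 6 of 7 epithelial markers. Of 6 alveolar type 2 markers, 2 had FPKM values, and of these only ABCA3 reached an FPKM of 1 in both libraries. None of the 6 fibroblast and none of the 4 endothelial markers did, and of 5 leukocyte markers only CD14 did. YTHDF2, the targeted gene, stood at FPKM 3.56 in shNC and 1.02 in shY2-2 (log2 ratio -1.18). It had 4 peaks in shNC and 3 in shY2-2, and 3 of its joined regions were found in both lists.

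N6-methyladenosine (m6A) is a methyl mark placed on adenosines of mRNA by a writer complex around METTL3, METTL14 and WTAP, mostly in a GGAC-like context and often near stop codons and in 3'-UTRs. It can be removed by the erasers FTO and ALKBH5. YTHDF2 is a cytoplasmic reader of the mark that brings marked mRNAs to the CCR4-NOT deadenylase and so speeds their decay. It does not write or remove the mark. The comparison asks which transcripts gained or lost m6A peaks when the reader was depleted, and how much RNA of these transcripts was present.

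The sites below are examples of such a gain or loss, picked from the stronger calls. Each lies in a peak that holds GGAC and has an FDR of at most 0.05 in the list of 1 condition. No peak of the same gene in the other list overlapped that peak by even 1 bp of exonic sequence. In genes with peaks in both lists, 34.1% of shNC and 22.5% of shY2-2 peaks without such an overlap reached that FDR. GGAC was held by 50.2% and 47.0% of them. The sequences are 28 bases of the reference genome GRCh38, 5' to 3' on the strand of the gene, with GGAC in capitals. They are the reference sequence under the peak, and the peak calling does not say which adenosine is methylated. The first 6 lie in peaks found in shNC and not in shY2-2, in the Wnt co-receptor LRP6, the Wnt signal transducer DVL2, the m6A reader IGF2BP1, the complement component C3, the thrombin receptor family member F2RL2 and the mitochondrial protein NIPSNAP1.
LRP6: gaagattaaactGGACtagccttatttg
DVL2: gcgcccttgactGGACttctcttcccca
IGF2BP1: gtgtgtggcaagGGACtggaaaacttca
C3: gaaacaatgccaGGACctcggcgccttc
F2RL2: tttccctgcggaGGACcagggcaagttt
NIPSNAP1: tttctattccaaGGACaatgaaggcagc

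They lie at chr12:12116358-12116385 (- strand, in a 3'-UTR peak of LRP6), chr17:7228048-7228075 (- strand, an exon peak of DVL2) and chr17:49052487-49052514 (+ strand, a 3'-UTR peak of IGF2BP1). The others lie at chr19:6677918-6677945 (- strand, a 3'-UTR peak of C3), chr5:76623375-76623402 (- strand, a 5'-UTR peak of F2RL2) and chr22:29570505-29570532 (- strand, a 5'-UTR peak of NIPSNAP1). The next 6 lie in peaks found in shY2-2 and not in shNC, in the Wnt scaffold AXIN1, the ubiquitin ligase subunit BTRC, the nuclear lncRNA MALAT1, the splicing factor LUC7L2, the WASH complex subunit WASHC4 and the transcription factor MAFG.
AXIN1: agtggagaaggtGGACtgataggctggt
BTRC: tgcatcttttctGGACtcagcagtctcc
MALAT1: tttaaaattgtaGGACttgttcctgtgg
LUC7L2: gggtgggggcagGGACtcttttcgtaat
WASHC4: ctcaggaattaaGGACtcaccataacat
MAFG: gccctgatgggtGGACcaccagcctggg

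These are at chr16:288113-288140 (- strand, 3'-UTR peak), chr10:101554102-101554129 (+ strand, 3'-UTR peak) and chr11:65503341-65503368 (+ strand, exon peak of MALAT1). The last 3 are at chr7:139423035-139423062 (+ strand, 3'-UTR peak of LUC7L2), chr12:105168973-105169000 (+ strand, 3'-UTR peak of WASHC4) and chr17:81922067-81922094 (- strand, 3'-UTR peak of MAFG). Locations are those of the deposited peak annotation, which gives a peak 1 location. The fold enrichment (IP over input) of these 12 peaks was between 1.38 for AXIN1 and 13.9 for WASHC4. Both ends of that range are shY2-2 peaks. The genes of the first set belong to the only shNC or more shNC group and those of the second to the more shY2-2 or only shY2-2 group. Exons of C3, NIPSNAP1, MALAT1, LUC7L2 and MAFG overlap another gene model on the same strand.

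Most changes in peak number were small. A difference of exactly 1 peak accounted for 472 of the 901 only shNC genes (52.4%), 1919 of the 3525 more shNC genes (54.4%), 1411 of the 2071 more shY2-2 genes (68.1%) and 392 of the 563 only shY2-2 genes (69.6%). Genes with at least 3 peaks in 1 condition and none in the other numbered 180 in shNC and 39 in shY2-2. The most frequent combination was 1 peak in each list, with 1033 genes. Genes of the more shNC group had 3.93 peaks per gene in shNC and 2.18 in shY2-2, and genes of the more shY2-2 group 2.27 and 3.72. Thus most of these genes carried peaks in both conditions and differed in how many.

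**Figure D1:**
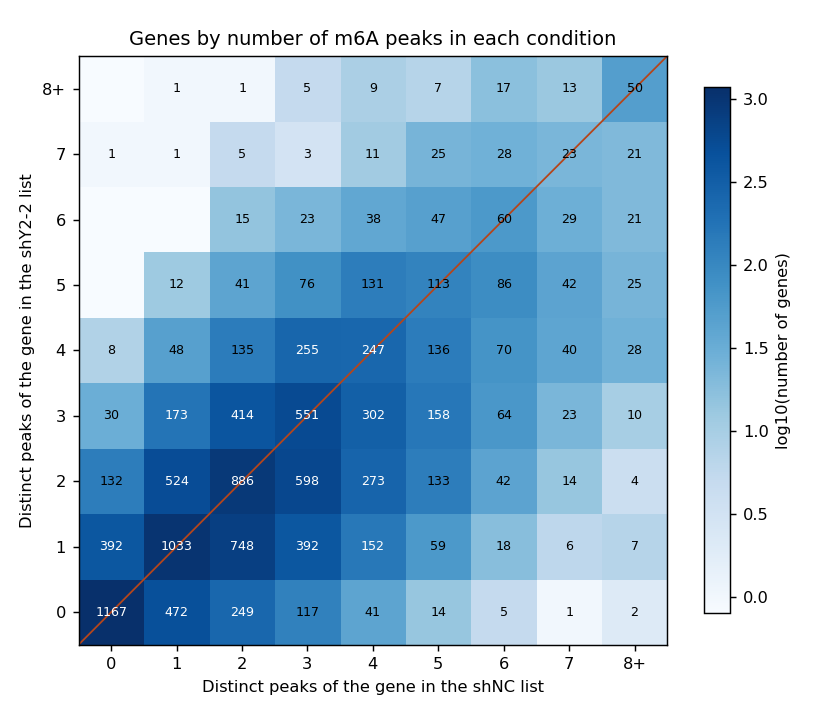
Number of genes for each combination of distinct peaks in the shNC list (x axis) and in the shY2-2 list (y axis), over the 11153 genes kept; colour is log10 of the number of genes, and 8+ joins genes with 8 or more peaks. The diagonal line runs through the equal group, where 1033 genes had 1 peak in each list, and the counts below it (more or only in shNC, 4426 genes) exceed those above it (2634 genes).

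Among genes with unequal numbers, 4426 were on the shNC side (62.7%) and 2634 on the shY2-2 side. The shNC list is the longer one, with 31057 distinct peaks against 27344. The shNC list was then cut to 27344 peaks in order of the deposited p-value, while the shY2-2 list kept all its peaks. This left 3606 genes on the shNC side and 3198 on the shY2-2 side, a share of 53.0%. Of the 901 only shNC genes, 795 stayed in that group. All 563 only shY2-2 genes stayed by construction, since no shY2-2 peak was removed. With peaks of an FDR of at most 0.05 the share on the shNC side was 67.7%, and with a fold enrichment of at least 2 it was 59.8%. The excess on the shNC side therefore depends on how many peaks each list is allowed to hold, and how far sequencing depth accounts for it was not tested.

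To tell a gained or lost region from a region that was merely split, overlapping peaks of both lists were joined within each gene. This gave 13755 regions with a peak in both lists, 10790 lost regions, with a peak in shNC alone, and 6543 gained regions, with a peak in shY2-2 alone. Lost regions had a median of 210 nt of exonic sequence and gained regions 181 nt, whereas shared regions covered 361 nt in shNC and 330 nt in shY2-2. Joining by overlap favours longer shared regions. Equal numbers did not mean equal regions. In the equal group, 1642 of 2926 genes (56.1%) had shared regions throughout, 1059 had both lost and gained regions and 327 (11.2%) had no shared region at all. Of the more shNC genes, 2152 had lost regions and no gained one, 1185 had both, and in 183 every region was shared and only the number of peaks within it differed. Of the more shY2-2 genes, 1118 had gained regions alone, 643 had both and 296 had every region shared. Overall 2887 of the 9986 genes (28.9%) had both lost and gained regions.

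Peaks that overlapped a peak of the other list looked different from those that did not. In genes with peaks in both lists, 47.7% of the shNC peaks of the more shNC group overlapped a shY2-2 peak, against 76.3% in the equal group and 82.3% in the more shY2-2 group. The shY2-2 peaks mirrored this with 81.0%, 78.8% and 59.0%. This order is largely set by the grouping. Location, FDR and sequence were not used to group the genes, although they come from the same peak calls.

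Matched peaks lay in 3'-UTRs more often than unmatched ones. In shNC the share in 3'-UTRs was 65.0% of 15546 matched peaks (95% Wilson interval 64.3 to 65.8) and 52.8% of 9653 unmatched peaks (51.8 to 53.8). In shY2-2 it was 64.6% of 16032 (63.9 to 65.4) and 52.4% of 6031 (51.2 to 53.7). Other exons held 17.7% of matched and 32.7% of unmatched shNC peaks, and 19.2% and 30.8% of shY2-2 peaks. The intervals of the unmatched peaks of both lists overlap each other. For peaks of genes found in 1 list alone the share in 3'-UTRs was 56.9% for only shNC (54.4 to 59.3) and 52.0% for only shY2-2 (48.5 to 55.5), so that the former lies above unmatched shNC peaks and below matched ones. The intervals cover the counting of peaks and not the spread between libraries.

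Unmatched peaks were also weaker calls. An FDR of at most 0.05 was reached by 78.1% of matched and 34.1% of unmatched shNC peaks, and by 70.9% and 22.5% of shY2-2 peaks. For genes found in 1 list alone the shares were 32.3% in only shNC and 25.1% in only shY2-2. Hence 407 of the 901 only shNC genes (45.2%) and 175 of the 563 only shY2-2 genes (31.1%) had at least 1 peak at that FDR. Matched peaks were longer, with a median of 331 against 181 nt of exonic sequence in shNC and 300 against 181 nt in shY2-2. The matching rule favours this, since a longer peak overlaps another more easily. Fold enrichment went opposite ways: the median was 2.17 in matched and 1.91 in unmatched shNC peaks, but 2.01 in matched and 2.31 in unmatched shY2-2 peaks.

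Many of the unmatched peaks shared exactly the same values. In the shY2-2 list, 866 peaks in 810 genes had a fold enrichment of 6.94 and an FDR of 0.979, and a further 415 had 8.09 and 0.603. The most frequent values in shNC were 7.63 with an FDR of 0.164 (386 peaks) and 8.39 with 0.112 (242 peaks). Of the 866 peaks, 8.66% overlapped a shNC peak of the same gene, and of the 386 peaks 20.7% overlapped a shY2-2 peak. Peaks whose fold enrichment, p and FDR were listed for at least 20 peaks made up 6.55% of matched and 21.8% of unmatched shNC peaks. In shY2-2 they made up 5.94% of matched and 36.8% of unmatched peaks. A high fold enrichment in a gained peak was thus often 1 of these repeated values, and the number of reads behind them is unknown. DVL3, which transduces Wnt signals, had its only shY2-2 peak at 8.09 with an FDR of 0.603.

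GGAC was present in 69.7% of matched and 50.2% of unmatched shNC peaks, and in 65.0% and 47.0% of shY2-2 peaks, counted on the strand of the gene. Longer peaks hold a short motif more often, so peaks of 150 to 250 nt were also compared. Among all peaks of that length, 51.5% held GGAC in shNC and 51.9% in shY2-2. Matched shNC peaks of that length held it in 54.1% (52.5 to 55.7) and unmatched ones in 49.3% (47.8 to 50.8). In shY2-2 the shares were 53.6% (52.2 to 55.0) and 48.4% (46.4 to 50.4). Peaks of genes in 1 list alone held it in 51.8% (48.1 to 55.6) in shNC and 53.1% (47.4 to 58.7) in shY2-2, and both intervals overlap those of the matched peaks. The difference in FDR also remained at this length, with 53.7% against 26.5% of shNC peaks and 53.9% against 22.6% of shY2-2 peaks at an FDR of at most 0.05. In 3'-UTRs lay 57.8% (56.1 to 59.3) against 52.5% (51.0 to 53.9) of these shNC peaks and 62.0% (60.6 to 63.4) against 53.0% (51.0 to 55.0) of these shY2-2 peaks.

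**Figure D2:**
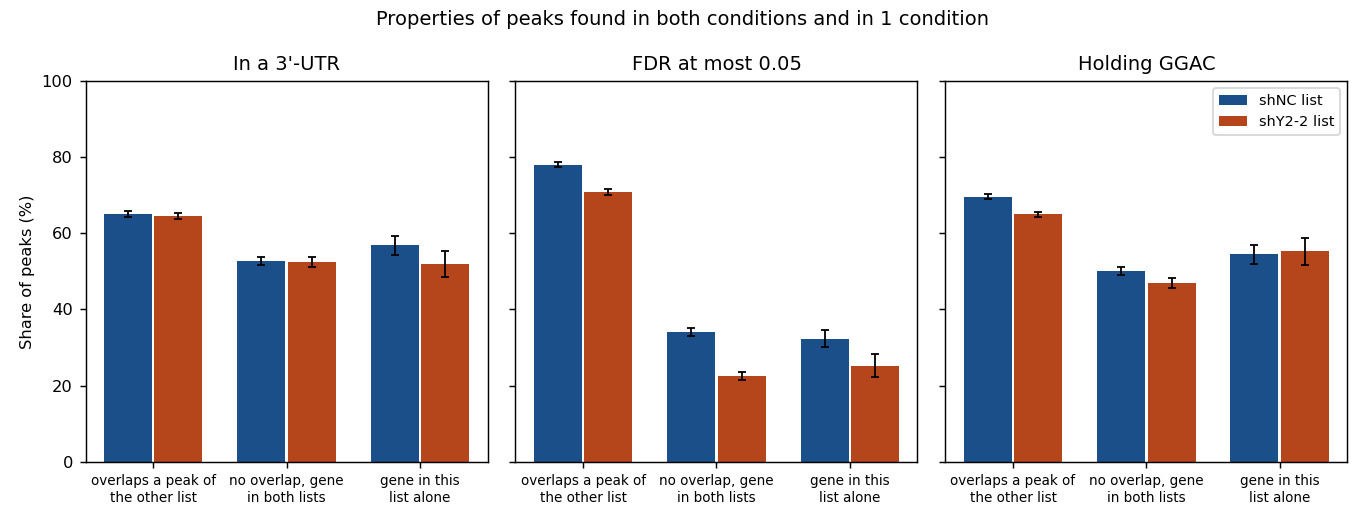
Share of peaks (%) that lie in a 3'-UTR, reach an FDR of at most 0.05 or hold GGAC, for peaks that overlap a peak of the same gene in the other list, peaks without overlap in genes found in both lists, and peaks of genes found in 1 list alone; blue bars are the shNC list, red bars the shY2-2 list, and error bars are 95% Wilson intervals for counting peaks. In both lists matched peaks stand highest in all 3 panels, with FDR shares of 78.1% in shNC and 70.9% in shY2-2.

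The groups differed in expression level. Genes with peaks in 1 list alone were expressed at a low level, with a median FPKM of 3.78 in shNC and 3.38 in shY2-2 for only shNC, and of 2.79 and 2.72 for only shY2-2. The more shNC group had medians of 6.89 and 6.53, the equal group 7.81 and 7.85, and the more shY2-2 group 6.74 and 7.02. Genes without a peak had 2.97 and 2.83. The share of genes in the only shNC group was 12.6% in the lowest of 5 equal bins of mean FPKM and 2.78% in the highest, and that of the only shY2-2 group 10.9% and 1.61%. Protein-coding genes made up 98.2% of the more shNC and 96.8% of the more shY2-2 group, and 86.4% and 82.3% of the groups only shNC and only shY2-2. Long noncoding RNAs made up 6.67% of only shNC and 8.21% of only shY2-2 genes, against 4.67% of all genes kept.

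RNA was compared between conditions by its log2 ratio, with 1 added to both FPKM values before shY2-2 was divided by shNC, so the ratios of weakly expressed genes are pulled towards 0. Median ratios were slightly below 0 in the groups on the shNC side. The median log2 ratio was -0.07 in only shNC (quartiles -0.35 and 0.16) and -0.03 in more shNC (-0.27 and 0.20). It was 0.06 in equal (-0.19 and 0.28), 0.05 in more shY2-2 (-0.19 and 0.27) and -0.02 in only shY2-2 (-0.26 and 0.21), against 0.01 over all genes kept. RNA was higher in shY2-2 for 43.2% of only shNC, 46.8% of more shNC, 56.8% of equal, 55.5% of more shY2-2 and 48.3% of only shY2-2 genes. The sign of the small medians was not stable: with an FPKM of at least 5 the more shNC median was 0.0039 and the only shY2-2 median 0.081, beside 0.062 over all genes then kept, and with peaks of a fold enrichment of at least 2 the more shNC median was 0.04. With peaks of an FDR of at most 0.05 the only shY2-2 median was 0.029. The quartiles of all groups overlap widely, and the distance between the extreme medians is small beside the spread of single genes. The input libraries also served as the background of the peak calls, so the ratio and the groups are not independent, and fewer peaks and less RNA cannot be told apart here.

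With the difference in peaks in steps, the median log2 ratio was -0.14 in the 296 genes that had at least 4 peaks fewer in shY2-2. It was -0.07 in the 529 genes with 3 fewer and in the 1210 genes with 2 fewer. In the 2391 genes with 1 fewer, the most frequent step on the shNC side, it was -0.0020, and 49.9% of them were higher in shY2-2. Genes with more peaks in shY2-2 did not show the mirror image, with 0.03 for 1 more (1803 genes), 0.05 for 2 more (601), 0.0012 for 3 more (164) and 0.02 for at least 4 more (66). By region, genes whose regions were all shared had a median log2 ratio of 0.11 (2121 genes), those with lost regions alone -0.02 (3237), those with gained regions alone 0.04 (1741) and those with both -0.05 (2887).

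**Figure D3:**
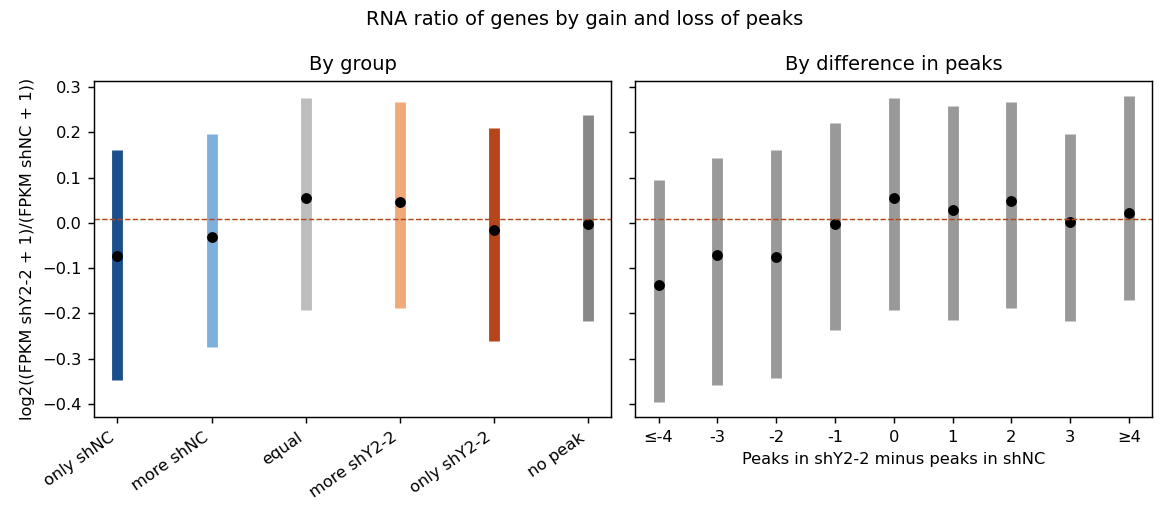
Log2 ratio of RNA, (FPKM + 1) in shY2-2 over (FPKM + 1) in shNC, by group (left) and by the number of peaks in shY2-2 minus that in shNC (right, with 4 or more joined); points are medians, bars run from the first to the last quartile, and the dashed line is the median of all genes kept (0.01). Medians run from -0.14 for at least 4 peaks fewer to 0.06 at equal numbers and lie between 0.0012 and 0.05 for genes with more peaks in shY2-2.

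Large differences in RNA were rare in all groups. A log2 ratio below -1 was found for 26 only shNC genes (2.89%), 79 more shNC genes (2.24%), 38 equal genes (1.30%), 26 more shY2-2 genes (1.26%) and 9 only shY2-2 genes (1.60%), where the share over all 11153 genes kept was 1.8%. A log2 ratio above 1 was found for 3, 14, 30, 15 and 3 genes of the same groups in that order, where the share over all genes kept was 0.69%. The largest of these shares was 1.03% in the equal group and the smallest 0.333% in only shNC. Hence only shNC and more shNC genes were above the background share on the lower side and below it on the higher side.

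Transcript length moved together with both the peaks and the RNA ratio. The spliced length of coding genes had a median of 3702 nt in only shNC and 3698.5 nt in more shNC, against 2706 nt in equal, 3024 nt in more shY2-2 and 3251 nt in only shY2-2. In 5 equal bins of coding genes from the shortest to the longest, the share on the shNC side was 27.0%, 38.4%, 45.5%, 48.9% and 52.4%, while the share on the shY2-2 side was between 21.8% and 26.8%. The number of shY2-2 peaks per shNC peak was 0.995 in the shortest bin and 0.781 in the longest. The median log2 ratio was 0.15 in the shortest and -0.15 in the longest bin. Within the longest bin it was -0.27 in only shNC, -0.17 in more shNC, -0.12 in equal, -0.09 in more shY2-2 and -0.19 in only shY2-2, and within the shortest 0.05, 0.15, 0.18, 0.14 and 0.13. The distance between more shNC and more shY2-2 was thus far smaller than that between the bins at either end, and the part of length in the differences between the groups was not tested.

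**Figure D4:**
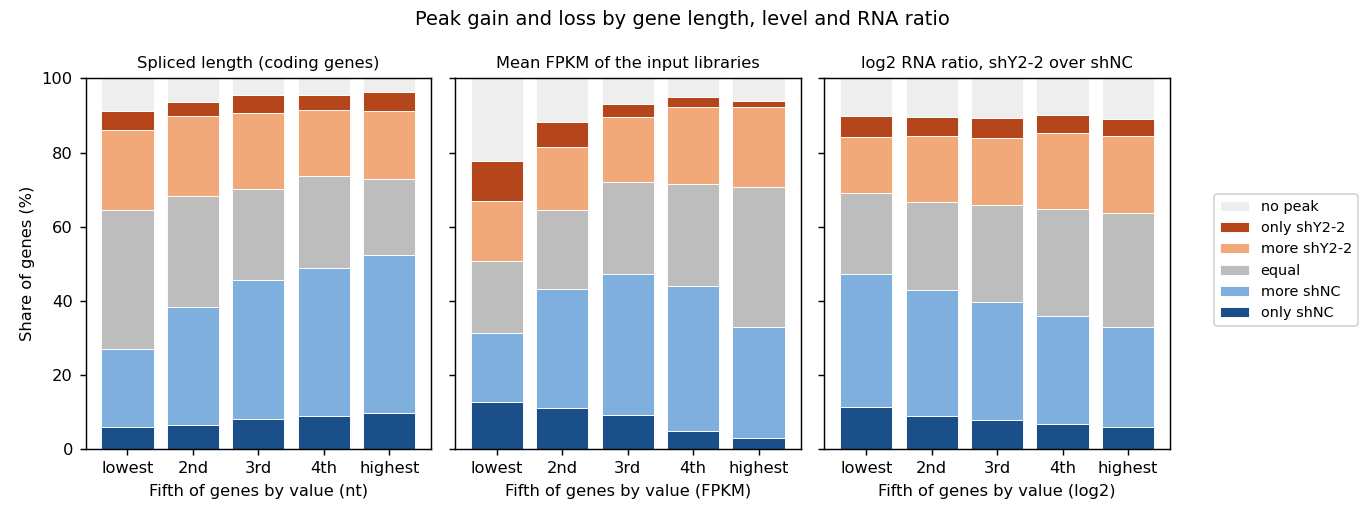
Share of genes (%) in each group for 5 equal bins of genes by spliced length (left, coding genes), mean FPKM (middle) and log2 RNA ratio (right), each from the lowest to the highest bin. The share on the shNC side (both blues) grows from 27.0% to 52.4% with length and falls from 47.2% to 32.9% with the RNA ratio, and genes with peaks in 1 list alone are most frequent at low FPKM.

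The genes at the ends of each group show how different these cases are. In only shNC, C21orf2, a ciliary protein, had the most peaks, with 10 in shNC and none in shY2-2, but these formed 6 separate regions once overlapping peaks were joined. Its FPKM was 1.15 in shNC and 1.91 in shY2-2, and 2 of its 10 peaks had an FDR of at most 0.05. CYB5D1, which holds a cytochrome b5 domain, followed with 9 peaks in 5 regions, then the zinc finger genes ZNF518A (7) and ZNF592 (6). PALB2, the partner of BRCA2 in homologous recombination, had 6 peaks at an FPKM of 5.82 in shNC and 4.54 in shY2-2. None of the 6 ZNF592 peaks reached an FDR of 0.05, although its FPKM was 7.47 and 9.17. Exons of C21orf2 and CYB5D1 overlap another gene model on the same strand.

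By RNA ratio, the lowest only shNC genes were LEPROT, whose transcripts share exons with the leptin receptor LEPR (FPKM 8.81 in shNC and 2.06 in shY2-2, log2 ratio -1.68), and the vesicle SNARE VAMP7 (12.1 and 3.13, -1.67). The single LEPROT peak lay under a LEPR peak of the shY2-2 list, so a peak there was listed for another gene after knockdown. The highest were MXI1, a repressor that competes with MYC for MAX (1.29 and 4.69, log2 ratio 1.31), and F2RL2 (13.0 and 27.3, log2 ratio 1.02). Regions listed for another gene on the same strand were found for 24 only shNC genes (2.66%) and 20 only shY2-2 genes (3.55%). With either strand counted, these numbers were 87 (9.66%) and 64 (11.4%).

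In more shNC, the largest differences were found for the opsin OPN3 (13 against 4 peaks), the mRNA export factor ZC3H11A (13 against 4), the RAB5 exchange factor RABGEF1 (15 against 6) and the intermediate filament protein SYNC (12 against 3), 9 peaks each. The proteasome ATPase PSMC1 (14 against 6) followed. Exons of OPN3, ZC3H11A and RABGEF1 overlap another gene model on the same strand, which is CHML for OPN3 and includes ZBED6 for ZC3H11A. After joining, RABGEF1 had 5 regions in shNC and 3 in shY2-2, and OPN3 10 and 2. The FPKM of OPN3 was nearly the same in both libraries, with 15.3 in shNC and 14.9 in shY2-2, and that of PSMC1 was 15.3 and 21.5. The lowest RNA ratios were those of C3, the central complement component (15.1 and 2.45, log2 ratio -2.22), and the cytoskeletal kinase ROCK2 (11.5 and 2.41, -1.87). None of the 4 shNC and 2 shY2-2 peaks of ROCK2 overlapped each other. NIPSNAP1 (12.5 and 54.2, log2 ratio 2.03) and the Mediator subunit MED29 (7.82 and 30.6, 1.84) were the highest. Thus a gene could have fewer peaks and either more or less RNA after knockdown.

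In the equal group, ASPH, a hydroxylase of the endoplasmic reticulum, MPRIP, which binds myosin phosphatase, and CDK5RAP3, a subunit of the UFM1 ligase, had 11 peaks in each list. Plectin (PLEC) and the mitochondrial import subunit TIMM50 had 10 in each. Of the regions of PLEC 8 were shared, 1 lost and 1 gained, whereas CDK5RAP3 had 2 shared, 1 lost and 4 gained regions. Exons of CDK5RAP3 overlap another gene model on the same strand. The lowest RNA ratios belonged to the actin-binding peptide TMSB4X (FPKM 528.6 in shNC and 102.7 in shY2-2, log2 ratio -2.35) and the membrane protein SUSD2 (26.8 and 5.24, -2.16). SUSD2 had 1 peak in each list, and these did not overlap. The highest were GABARAPL1, which works in autophagy (2.81 and 14.7, log2 ratio 2.05), with all 3 regions shared, and SPATA2, an adaptor of the deubiquitinase CYLD (1.02 and 6.63, 1.92).

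In more shY2-2, BBS5, a subunit of the ciliary BBSome, had 1 peak in shNC and 9 in shY2-2, which formed 4 regions, at an FPKM of 1.07 and 1.37. MALAT1 had 4 and 10 peaks in 4 and 6 regions, and its FPKM was 22.2 in shNC and 12.4 in shY2-2. LUC7L2 (4 and 10) and the tubulin cofactor TBCD (3 and 9) differed by 6 peaks each. At an FDR of at most 0.05, BBS5 had 1 and 3 peaks, MALAT1 3 and 7, LUC7L2 3 and 7, and TBCD 2 and 3. Exons of BBS5, MALAT1 and LUC7L2 overlap another gene model on the same strand. The lowest RNA ratios were those of dystroglycan DAG1 (17.5 and 1.06, log2 ratio -3.17) and the tRNA splicing subunit TSEN15 (11.3 and 2.60, -1.77). DAG1 had 4 peaks in shNC and 6 in shY2-2, and all 4 of its regions were shared. The highest were MPZL1, a membrane glycoprotein (5.38 and 25.5, log2 ratio 2.06), and cyclin E1, CCNE1 (12.1 and 39.0, 1.61).

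In only shY2-2, PLD1, a phospholipase D, had 7 peaks and none of them in shNC, at an FPKM of 1.92 in shNC and 1.43 in shY2-2. No PLD1 peak reached an FDR of 0.05, the lowest being 0.257. NAA30, the catalytic subunit of an N-terminal acetyltransferase, the DNA helicase BRIP1, FGFR1OP2 and the thioredoxin reductase TXNRD3 had 4 peaks each. Among these, BRIP1 (lowest FDR 0.0245) and FGFR1OP2 had at least 1 peak under 0.05. The lowest RNA ratios were those of RN7SL2, the RNA of the signal recognition particle (621.7 and 235.6, log2 ratio -1.40), and WASHC4 (7.81 and 2.53, -1.32). RN7SL2 has a near-identical copy, RN7SL1, so its reads can be split between the copies. The highest were TIMM8B, a mitochondrial chaperone (10.8 and 37.6, log2 ratio 1.72), and MAFG (9.84 and 31.4, 1.58). The single TIMM8B peak (fold enrichment 3.70, FDR 1e-138) lies over a shNC peak listed for C11orf57 on the other strand. Exons of RN7SL2 and MAFG overlap another gene model on the same strand.

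The m6A machinery was described from lists of known members, each set beside all genes kept, of which 39.7% were on the shNC side and 23.6% on the shY2-2 side, or 62.7% of unequal genes on the shNC side. The writer list is not limited to the complex around METTL3. Of its 12 genes, 3 were in only shNC, 5 in more shNC, 1 in equal and 3 in more shY2-2. Of the unequal writers 72.7% were on the shNC side, with an interval (43.4 to 90.3) that holds the 62.7% of all genes. WTAP, PCIF1 and ZCCHC4 each had 1 peak in shNC and none in shY2-2, all with an FDR above 0.05, at 0.123, 0.168 and 0.251. The catalytic subunit METTL3 had 5 peaks in shNC and 8 in shY2-2, its partner METTL14 3 and 2, and the scaffold VIRMA 7 and 5. Their FPKM was 9.75 and 11.3 for METTL3, 2.11 and 1.62 for METTL14, and 7.03 and 6.53 for VIRMA. At an FDR of at most 0.05, METTL3 had 4 and 4 peaks, METTL14 1 and 1, and VIRMA 4 and 3. ZC3H13 had 2 and 5 peaks, of which 2 and 1 reached that FDR. With peaks of an FDR of at most 0.05, the writers that still had unequal numbers (CBLL1, METTL16, RBM15, VIRMA and ZC3H13) were on the shNC side, where 67.7% of all unequal genes then were. The eraser ALKBH5 had 5 and 3 peaks at an FPKM of 31.8 and 42.2, and FTO was not grouped, since its FPKM was 0.948 in shNC.

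Among 11 readers, 5 were in more shNC, 3 in more shY2-2, 2 in equal and 1 (IGF2BP2) had no peak. The share of unequal readers on the shNC side was 62.5%, beside 62.7% of all genes. IGF2BP1, which stabilizes marked mRNAs, had 5 peaks in shNC and 1 in shY2-2, with 4 lost regions, while its FPKM was 13.2 in shNC and 22.4 in shY2-2. The paralogs of YTHDF2 had 3 and 3 peaks (YTHDF1) and 4 and 2 peaks (YTHDF3). The nuclear reader YTHDC1 had 3 and 1, and YTHDC2 had 2 and 1 with no shared region. None of the YTHDC2 peaks reached an FDR of 0.05. Of 17 decay genes, mostly of CCR4-NOT and the decapping complex, 12 were in more shNC, 3 in more shY2-2 and 2 in equal. On the shNC side were 80% of the unequal decay genes (54.8 to 93.0), an interval that also holds 62.7%. They had 51 peaks in shNC and 36 in shY2-2. The scaffold CNOT1 had 2 peaks in shNC and 1 in shY2-2 with no shared region, at an FPKM of 27.0 and 16.0. Its shY2-2 peak had an FDR of 0.385. The deadenylase CNOT7 had 3 and 1 peaks at 9.36 and 6.13, and CNOT8 4 and 1 at 9.23 and 7.25. In more shY2-2 were CNOT11 (2 and 3), POP1 (3 and 4) and RIDA (1 and 3). At an FDR of at most 0.05, CNOT11 had 2 and 3 peaks, RIDA 1 and 2, and POP1 3 and 0. XRN1 was not grouped, with an FPKM of 0.765 in shY2-2.

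Of 21 genes of Wnt signaling and its targets, 1 was in only shNC, 6 in more shNC, 9 in equal and 4 in more shY2-2, and MMP2 had no peak. The share of unequal Wnt genes on the shNC side was 63.6%, beside 62.7% of all genes. LRP6, a co-receptor, had 7 peaks in shNC and 2 in shY2-2 with 6 lost regions, 1 gained and 1 shared. Its FPKM was 11.1 and 7.27. DVL2, only in shNC, had 2 peaks, both with an FDR of at most 0.05, at an FPKM of 7.01 and 8.84. AXIN1, the scaffold of the complex that degrades beta-catenin, had 1 peak in shNC and 4 in shY2-2 (3 joined regions, 1 shared and 2 gained), at an FPKM of 5.78 and 7.77. The exonic sequence under the AXIN1 peaks was nearly equal, with 960 nt in shNC and 962 nt in shY2-2. Of its 4 shY2-2 peaks, 2 had an FDR of at most 0.05. Fold enrichment was 3.43 for the shNC peak and between 1.3 and 2.45 for the shY2-2 peaks. BTRC, which marks beta-catenin for degradation, had 2 and 5 peaks at an almost equal FPKM of 4.98 and 5.17. CTNNB1, beta-catenin itself, had 5 and 3 peaks at 28.3 and 26.9. The target genes MYC (1 and 1), CCND1 (4 and 4), CD44 (3 and 3) and JUN (3 and 3) were in the equal group, while FN1 (3 and 2) and MMP7 (4 and 3) were in more shNC. The RNA of FN1 was lower in shY2-2 (32.8 and 8.33, log2 ratio -1.86), as was that of JUN (13.3 and 5.18, -1.21).

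For functions, the GO and KEGG terms of the deposited table were used, and each term is set beside all genes kept, of which 39.7% were on the shNC side, 26.2% equal and 23.6% on the shY2-2 side. Equal numbers were most frequent in terms of short and highly expressed genes. In KEGG Ribosome (129 genes) 48.8% were equal, 22.5% on the shNC side and 25.6% on the shY2-2 side. KEGG Proteasome (42 genes) had 50.0%, 19.0% and 31.0%, and KEGG Oxidative phosphorylation (102 genes) 48.0%, 19.6% and 25.5%. The lean of the last 2 terms to the shY2-2 side turned round with peaks of an FDR of at most 0.05: the share of unequal genes on the shNC side was then 59.1% for Proteasome and 56.4% for Oxidative phosphorylation, against 38.1% and 43.5% with all peaks. The median spliced length of these genes was 1070, 1406.5 and 1111 nt, against 2967.5 nt over all genes kept. The median log2 ratio of RNA was 0.34 for Ribosome, 0.30 for Proteasome and 0.12 for Oxidative phosphorylation.

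The terms furthest to the shNC side were KEGG Complement and coagulation cascades (15 of 25 genes, 60.0%), KEGG RNA degradation (38 of 69, 55.1%), GO cell-matrix adhesion (20 of 38, 52.6%) and GO angiogenesis (65 of 128, 50.8%). Of their unequal genes, 71.4% (50.0 to 86.2), 76.0% (62.6 to 85.7), 64.5% (46.9 to 78.9) and 71.4% (61.4 to 79.7) were on the shNC side, in that order. Each of these intervals holds the 62.7% of all genes. Those of Ribosome (34.9 to 59.0), Proteasome (20.8 to 59.1) and Oxidative phosphorylation (30.2 to 57.8) lie below it. Those of zinc ion binding (63.3 to 73.3) and plasma membrane (63.6 to 68.9) lie above it. In the complement and coagulation term, 7 of 25 genes (28.0%) had peaks in shNC alone, against 8.08% of all genes kept. Its median log2 ratio of RNA was -0.60. For cell-matrix adhesion it was -0.23 and for angiogenesis -0.18, while it was -0.02 for RNA degradation. RNA degradation genes had 85 lost, 39 gained and 102 shared regions. This split is close to that over all genes kept, where 34.7% of regions were lost, 21.0% gained and 44.2% shared. KEGG Spliceosome genes were on the shNC side for 43.3% and on the shY2-2 side for 16.5%. Cell migration (GO, 123 genes) had 44.7% on the shNC side and 30.1% on the shY2-2 side. Terms that regulate transcription or bind zinc had 43.1% and 47.8% on the shNC side at median lengths of 3725.5 and 3824.5 nt. The terms overlap in their genes and were not tested for enrichment.

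**Figure D5:**
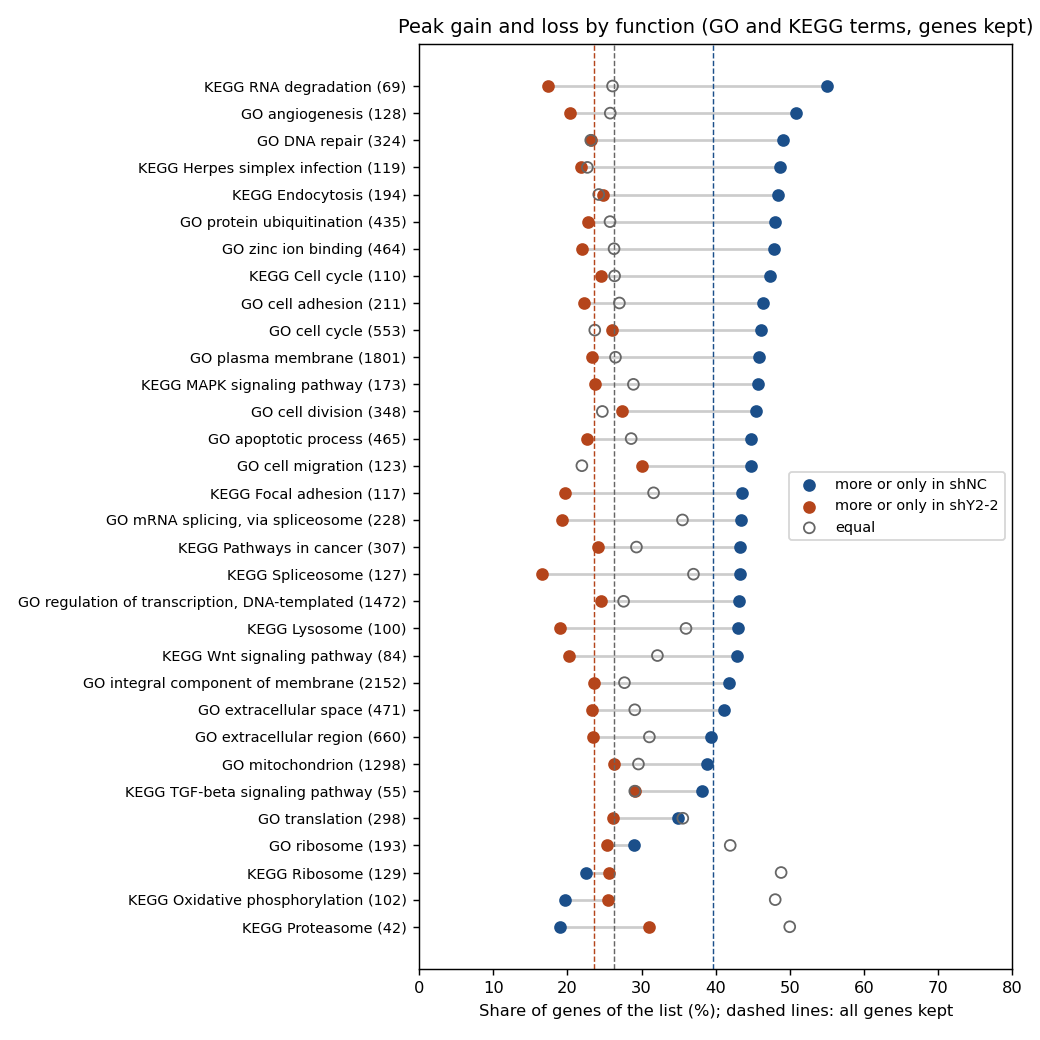
Share of the genes of each GO or KEGG term (%) that had more or all peaks in shNC (blue), more or all in shY2-2 (red) or equal numbers (open circles), for the terms with at least 40 genes kept, with the number of genes in brackets; dashed lines are the shares over all genes kept (39.7%, 23.6% and 26.2%). Ribosome, oxidative phosphorylation and proteasome genes stand at the bottom with equal shares between 48.0% and 50.0%, and RNA degradation at the top with 55.1% on the shNC side.

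At the limit of FPKM 1 that decides which genes are grouped, SNORD6 was the last gene inside, with an FPKM of 1.85 in shNC and 1.001 in shY2-2 and 1 peak in each list. PER1, a clock gene, was the nearest outside, at 0.999932 in shNC and 2.08 in shY2-2, with 1 peak in shNC and none in shY2-2.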

How the data were processed

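The data are an input and an IP library of A549 cells for each of the 2 conditions, 4 libraries in all. Samples were grouped by their labels. HISAT2 was the aligner (build GRCh38). Deposited FPKM, 1 value per gene and input library, was computed by the authors with StringTie. For peaks the authors ran exomePeak on the IP and input of a condition, which gave 1 list for shNC and 1 for shY2-2, and assigned locations with ChIPseeker. The submitters' processing notes also name fastp and HOMER. Tool versions are not given in the sources used here. Deposited with each peak are its p-value (at most 0.049 in either list), the log10 score of that p-value and of the FDR, the fold enrichment as a linear ratio, and its exonic blocks. These are the authors' values, used here to describe or filter peaks and never to group genes. FPKM and the peak lists keep no read counts, so the depth and the precision it gives are unknown. Wilson intervals cover only the counting of peaks or, for the gene lists and terms, of unequal genes. They treat these peaks or genes as independent draws and are not a test of a list or term.

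Rows with the same position and gene were counted once. Peaks of a gene were matched between lists by at least 1 bp of shared exonic sequence. Of the peaks in genes kept, 6.05% of shNC and 6.18% of shY2-2 peaks overlapped another peak of the same gene in the same list, and 279 shNC and 268 shY2-2 peaks belong to genes outside the FPKM table. Spliced length is that of the canonical transcript of GENCODE release 44 (GRCh38), which holds 11108 of the 11153 genes kept; this release may differ from the authors' annotation. Log2 ratios used a pseudocount of 1 and no centring. With 1 library per condition and kind, no test was run.

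The named genes are the 5 with the most peaks or the largest difference in each group, in each group the 2 at either end of the log2 ratio, and the members of 5 lists (m6A writers, erasers and readers, decay factors, Wnt genes). One gene that this rule names is not reported here. Sites to print were chosen from the peaks of these genes that hold GGAC and have an FDR of at most 0.05. The groups, the lists and the terms were chosen with earlier results of these data known. Alternatives were other FPKM filters, a pseudocount of 0.1, centring, an FDR of at most 0.05, a fold enrichment of at least 2, lists of equal size, other ways of counting and matching peaks, and a threshold of 1.5-fold. All measurement columns belong to a sample. Lists from binding experiments on YTHDF2 were not used here. The grouping, joining and matching steps were tested on simulated peaks. Scripts ran in Python 3.11.15 with pandas 2.3.3, pysam 0.24.0, NumPy 2.4.6, matplotlib 3.10.9 and SciPy 1.17.1.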

Additional observations from a re-analysis of the deposited data

Results flagged for a closer look

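Peaks of genes below an FPKM of 1 in at least 1 input library did not enter the grouping. Such distinct peaks numbered 3968 for shNC and 4228 for shY2-2, so that outside the genes grouped the knockdown list is the longer one, opposite to the genes grouped, with 26810 shNC and 22848 shY2-2 peaks. This was not tested.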

How the results depend on the processing

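Of 170 alternative values, 102 stayed within the margin of their kind (1.5 times for counts of genes, the 95% interval for shares and medians), which is wide for short lists. At an FDR of at most 0.05 it holds a move of the shNC share of unequal genes from 38.1% to 59.1% for Proteasome, from 43.5% to 56.4% for Oxidative phosphorylation and from 56.8% to 71.0% for TGF-beta signaling. Of the 170 values, 150 came from settings listed at the outset and 20 from a pair of settings chosen after seeing the data (overlapping peaks joined, repeated values left out). No paired analysis was possible because each group has 1 library. With an FPKM of at least 5 the groups from only shNC to only shY2-2 held 265, 2023, 1760, 1160 and 127 genes, with median log2 ratios of -0.0043, 0.0039, 0.103, 0.0879 and 0.0806, the second and last of which changed sign. With peaks of an FDR of at most 0.05, only shNC held 1568, more shNC 2030 and more shY2-2 1067 genes, and the medians were -0.113 (only shNC), 0.0928 (equal), 0.105 (more shY2-2) and, with a changed sign, 0.0288 (only shY2-2). Shares in 3'-UTRs were then, for shNC peaks, 61.0% (only shNC), 63.2% (more shNC), 63.4% (equal) and 64.5% (more shY2-2), and for shY2-2 peaks 67.7% (more shNC), 62.75% (equal), 62.8% (more shY2-2) and 58.4% (only shY2-2). The share of unequal genes on the shNC side was then 74.6% for DNA repair, 73.1% for extracellular region, 72.8% for extracellular space, 68.4% for integral component of membrane, 71.2% for plasma membrane, 69.6% for regulation of transcription and 100% for m6A writers. With a fold enrichment of at least 2, the groups other than equal held 1720, 1970, 1292 and 1188 genes, and the medians were -0.012 (only shNC), 0.0402 (more shNC, changed sign), 0.036 (equal) and 0.0059 (more shY2-2). Without repeated values the medians were -0.13 (only shNC) and 0.0739 (more shY2-2). Where an overlap had to cover 50% of the shorter peak, 44.2%, 73.2% and 78.9% of shNC peaks and 76.7%, 75.1% and 55.2% of shY2-2 peaks were matched (more shNC, equal, more shY2-2). With a pseudocount of 0.1, genes above a log2 ratio of 1 numbered 12, 28, 48, 31 and 9 and genes below -1 numbered 40, 130, 68, 46 and 22 in the order of the groups. At 1.5-fold these numbers were 35, 119, 166, 105 and 29 above and 97, 329, 176, 126 and 44 below. Fewer genes or a looser threshold account by construction for the lower or higher counts. With fewer peaks a group could grow or shrink. At an FDR of at most 0.05, only shNC rose from 901 to 1568 genes and more shNC fell from 3525 to 2030. The causes of these moves and of the changed signs were not tested. Depth is unknown, and with 1 library per condition no value has an error between replicates.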

Other observations

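Among the most repeated fold enrichments, some were spaced at even steps in each list. In shNC these were 6.87, 7.63, 8.39, 9.16 and 9.92, and in shY2-2 6.94, 8.09, 9.25 and 10.4. Peaks with the first of these values in shNC numbered 167, at an FDR of 0.624, and in shY2-2 866, at an FDR of 0.979. The median exonic length of the peaks was 61 nt for the former and 420 nt for the latter. Between 20.4% and 33.3% of the peaks at these shNC values overlapped a peak of the same gene in shY2-2, and between 8.66% and 20.9% of those at the shY2-2 values overlapped one in shNC.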
